A study of Mus musculus with 32 samples.

Results

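Dbp, Tef and Hlf encode the PAR bZIP transcription factors, and Nfil3 encodes their bZIP relative. Rows were chosen by symbol from a table of estimated RNA counts per gene, where all 4 genes were found among 37751 gene identifiers. The table covers whole lungs of 12 mice in 32 libraries. WT mice were C57b/6 animals (6 mice) and KO mice were Bmal1 knock-outs (6 mice). Both genotypes were labelled female, were 8 to 18 weeks old and were bred in-house, and no treatment is named in the labels. The knockout allele, the tissue range of the deletion, the background strain of the KO mice, whether WT mice were littermates and the hour of collection are not given in the sources used here. Lungs were snap-frozen after death by carbon dioxide, and each gave 2 or 3 kinds of library. In RiboZero libraries ribosomal RNA had been pulled down, and in PolyA libraries polyadenylated RNA had been selected, each from 200 ng of RNA of all 12 mice (n = 6 per genotype). NoSelect libraries omitted both steps and combined 6 preparations of 15 ng for mice 3 to 6 of each genotype (n = 4 per genotype).

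PAR stands for a domain rich in proline and acidic residues. PAR bZIP proteins activate genes through a DNA element called the D-box, and NFIL3 binds the same element and represses. In tissues with a running circadian clock, BMAL1 and CLOCK drive Dbp through E-boxes, and the nuclear receptors ROR and REV-ERB act on Nfil3, so that Dbp and Nfil3 RNA usually peak at opposite times of day. Tef and Hlf are known to cycle less than Dbp, and DBP, TEF and HLF can stand in for each other on many target genes such as those of drug metabolism. NFIL3 is also known for its role in the development of lymphocytes.

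In the GENCODE M21 annotation of GRCm38, Dbp (ENSMUSG00000059824) lies at chr7:45705088-45710203 on the plus strand, with 2993 bases of annotated exon. Tef (ENSMUSG00000022389) lies at chr15:81802421-81826863 on the plus strand, with 7867 bases of annotated exon. Hlf (ENSMUSG00000003949) lies at chr11:90336536-90390895 on the minus strand, with 6681 bases of annotated exon. Nfil3 (ENSMUSG00000056749) lies at chr13:52967209-52981073 on the minus strand, with 2026 bases of annotated exon. All 4 are protein-coding, and their values cover the whole gene.

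The promoter stretches are shown because BMAL1, ROR and the PAR bZIP factors are each known for a short DNA motif. RefSeq (build GRCm38.p6) gave 5 windows for the 4 genes, from 250 bases before a RefSeq start to 50 bases after it. Each of 5 motifs was searched on both strands: the E-box CACGTG, the E-prime box CACGTT, the D-box TTANGTAA, the ROR half-site AGGTCA and the cyclic AMP response element TGACGTCA. Below are the 250 bases before the start for the 4 windows that held a match, 5′ to 3′ on the gene's strand, with the match in capitals.
Tef, first start, chr15:81802423-81802672, plus strand: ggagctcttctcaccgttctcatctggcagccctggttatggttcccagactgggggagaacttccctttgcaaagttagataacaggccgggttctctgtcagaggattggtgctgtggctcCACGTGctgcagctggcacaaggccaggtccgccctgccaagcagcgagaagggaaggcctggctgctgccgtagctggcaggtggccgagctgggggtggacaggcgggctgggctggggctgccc
Tef, second start, chr15:81811164-81811413, plus strand: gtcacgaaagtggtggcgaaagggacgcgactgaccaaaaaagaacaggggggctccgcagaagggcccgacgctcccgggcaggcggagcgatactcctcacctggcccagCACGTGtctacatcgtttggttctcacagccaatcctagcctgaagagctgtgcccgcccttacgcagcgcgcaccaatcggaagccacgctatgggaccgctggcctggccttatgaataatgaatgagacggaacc
Hlf, chr11:90390918-90391167, minus strand: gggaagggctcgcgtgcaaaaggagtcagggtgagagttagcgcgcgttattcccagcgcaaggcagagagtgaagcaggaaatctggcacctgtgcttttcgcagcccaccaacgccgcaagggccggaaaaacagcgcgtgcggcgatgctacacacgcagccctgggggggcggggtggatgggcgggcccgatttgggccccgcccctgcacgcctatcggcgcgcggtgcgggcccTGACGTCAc
Nfil3, chr13:52981040-52981289, minus strand: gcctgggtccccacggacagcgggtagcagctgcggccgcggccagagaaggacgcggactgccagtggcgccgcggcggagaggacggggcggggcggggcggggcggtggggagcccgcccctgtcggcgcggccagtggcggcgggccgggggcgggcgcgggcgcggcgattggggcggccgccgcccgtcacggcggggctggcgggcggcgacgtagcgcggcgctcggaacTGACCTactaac

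Both Tef windows held 1 E-box, at position -127 for the first start and -138 for the second, where -1 is the base before the start. An E-box was present in 7.17% of the 32544 distinct windows of the table. The Hlf window held 1 cyclic AMP response element at position -9, a motif found in 1.8% of windows. The Nfil3 window held 1 ROR half-site at position -12, read on the other strand as TGACCT, against 16.2% of windows. None of the 5 motifs was found in the Dbp window (chr7:45704997-45705246, plus strand, for the part before the start), and no D-box or E-prime box was found in any of the 5 windows. These motifs occur in 2.29% and 4.71% of windows. A match is one of letters only, and no match says only that these letters are absent from the window.

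Total estimated counts ran from 11638594 to 25801237 in RiboZero, 29924325 to 41548830 in PolyA and 74979802 to 115059756 in NoSelect libraries. Levels are given as counts scaled to library size (CPM) on 1 trimmed-mean (TMM) scale over all 32 libraries. The targeted gene, Arntl (the symbol of Bmal1), lay at 27.0 to 33.9 CPM in WT and 15.2 to 18.7 in KO in RiboZero, at 19.6 to 23.6 and 17.0 to 20.9 in PolyA, and at 27.5 to 29.4 and 16.6 to 18.7 in NoSelect. WT and KO overlapped in PolyA for this gene, and not in the other preparations. By the edgeR test described below, Arntl was called lower in KO in each preparation. Its log2 change was -0.83 in RiboZero, -0.27 in PolyA and -0.69 in NoSelect (edgeR adjusted p 2.46e-05, 0.0262 and 0.000451). The NoSelect library of KO mouse 6 is labelled liver, but the 8 hepatocyte markers summed to 5.30 CPM in it and the 5 alveolar type 2 markers to 9780 CPM, close to 5.24 and 9733 CPM in the RiboZero library of the same mouse. KO mouse 6, labelled female, had 2 Xist counts and 2195 Ddx3y counts in its RiboZero library, against at least 13691 and at most 0 in the other 11. Neutrophil markers (4 of 4 in the table, none at 0 in all libraries of a group) summed to 9.64 to 16.01 CPM in WT and 9.09 to 60.4 in KO in RiboZero, with like ranges in PolyA (12.1 to 21.9 and 13.3 to 87.4) and NoSelect (7.46 to 9.20 and 8.45 to 44.2). Club cell markers (3 of 3 in the table) summed to 7717 to 12990 CPM in WT and 10675 to 13921 in KO in RiboZero, to 22398 to 41929 and 26636 to 40288 in PolyA, and to 8724 to 11891 and 12227 to 14871 in NoSelect, where the groups did not overlap. Mean sums of alveolar type 1, ciliated and endothelial markers were also higher in KO in all 3 preparations, with WT and KO libraries overlapping. Those of alveolar type 2, macrophage, T cell, NK cell and cardiomyocyte markers were lower in KO in all 3, again with overlap. For alveolar type 2 the WT and KO means were 8893 and 8015 CPM in RiboZero, 12927 and 11466 in PolyA, and 9021 and 8110 in NoSelect. The part of these markers in the results that follow was not tested.

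Tef was the most abundant of the 4 genes and Dbp the least, in every group. Per kilobase of annotated exon, Tef stood at 12.2 ± 1.31 CPM in RiboZero WT (SD, n = 6), Nfil3 at 8.95 ± 2.27, Hlf at 1.23 ± 0.261 and Dbp at 0.497 ± 0.271. The same order of group means, Tef above Nfil3 above Hlf above Dbp, was found in all 6 groups, and also when the longest coding transcript was used as the length. Tef held 50.1% to 58.4% of the summed level per exon length of the 4 genes, as group means, and 63.1% to 70.2% per transcript length. Nfil3, the repressor of the set, held 33.9% to 41.3% per exon length and 22.9% to 29.1% per transcript length. Dbp was read from few molecules, with 19 to 76 estimated counts per RiboZero library, 70 to 299 per PolyA library and 33 to 77 per NoSelect library. Tef by contrast had 1757 to 8575 counts per library over all 32. In bulk tissue, fewer cells of a type and less RNA per cell cannot be told apart.

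**Figure D1:**
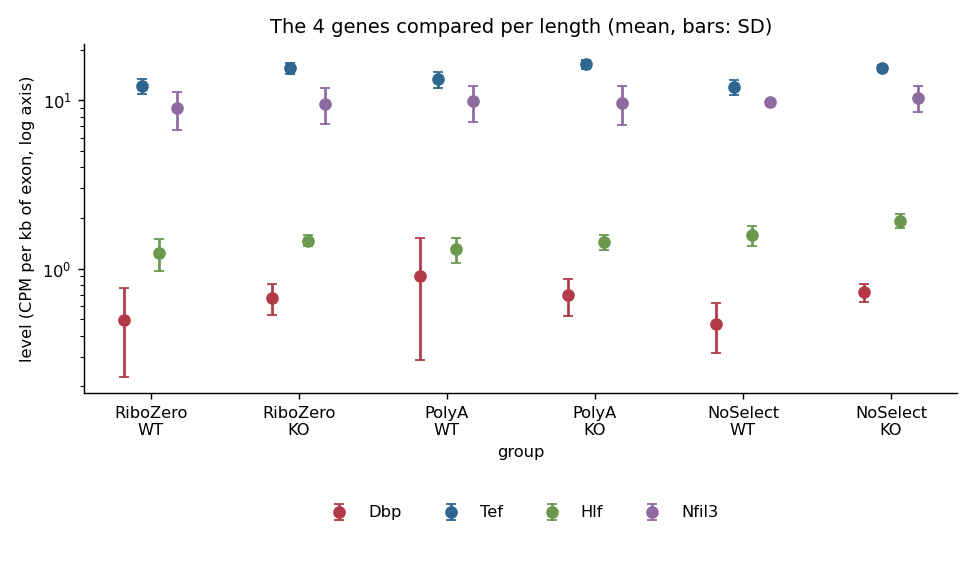
Mean level of Dbp, Tef, Hlf and Nfil3 in each of the 6 groups, as CPM per kilobase of exon on a log axis, with bars for the SD over 6 libraries (RiboZero and PolyA) or 4 libraries (NoSelect). Tef lay highest and Dbp lowest in every group, from 11.97 to 16.4 CPM per kilobase for Tef and from 0.468 to 0.904 for Dbp.

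Tef, the factor named for the thyrotroph cells of the pituitary, was higher in KO than in WT lungs. RiboZero WT libraries had a lowest, median and highest value of 79.0, 96.0 and 109.0 CPM, and KO libraries 111.8, 121.1 and 132.3. PolyA values were 88.9, 103.5 and 125.0 in WT and 119.5, 126.7 and 139.2 in KO. NoSelect values were 80.1, 94.3, 100.3 and 101.8 in WT mice 3 to 6 and 122.3, 116.5, 123.7 and 128.8 in KO mice 3 to 6. Every KO library lay above every WT library in RiboZero and in NoSelect, and in PolyA 1 WT library, that of mouse 2, reached into the KO range. Rows without overlap and higher in KO made up 1.36%, 1.31% and 4.89% of the rows tested in RiboZero, PolyA and NoSelect.

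Tested in edgeR by quasi-likelihood, with p adjusted by Benjamini-Hochberg over 16710 rows, Tef rose 1.27-fold in RiboZero KO (95% interval 1.14 to 1.42, log2 0.35, SE 0.0733, adjusted p 0.0206). Tef was the 1 member of 4 called there, where 3.46% of all rows were called at an adjusted p under 0.05. In NoSelect it rose 1.30-fold (1.16 to 1.46, log2 0.38, SE 0.0742, edgeR adjusted p 0.0391) and was again the 1 member called, against 2.17% of 17124 rows. In PolyA the fold was 1.20 (1.08 to 1.33, log2 0.26, SE 0.0698), and the edgeR adjusted p of 0.0575 did not pass. No member was called by edgeR in PolyA, where 4.03% of 17211 rows were. DESeq2 called Tef there (adjusted p 0.00612), but it called 1355 rows in PolyA, against 694 with edgeR. An unadjusted p under 0.05 in edgeR was reached by 1 of the 4 members in RiboZero (Tef), by 1 in PolyA (Tef, 0.00252) and by 3 in NoSelect (Dbp, Tef and Hlf), against 16.4%, 18.0% and 15.7% of all rows.

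The Tef calls rested on small margins. Without WT mouse 2, the PolyA fold change was 0.32 on the log2 scale (edgeR adjusted p 0.00544), and in RiboZero it was 0.38 (0.0136). The RiboZero call was lost without WT mouse 4 (adjusted p 0.0519) or KO mouse 2 (0.053), and with mice 3 to 6 alone (0.067). Without KO mouse 6, whose sex-linked counts went against its label, the log2 change was 0.32 in RiboZero (edgeR adjusted p 0.0404) and 0.25 in PolyA (0.0811). Leaving out its NoSelect library, labelled liver, gave a log2 change of 0.36 with an edgeR adjusted p of 0.0665, and 7 of the 8 fits that left out 1 NoSelect library lost the call, the exception being that without WT mouse 3 (0.0257). Over all alternatives the log2 change lay between 0.29 and 0.39 in RiboZero, 0.23 and 0.32 in PolyA, and 0.31 and 0.45 in NoSelect. Exons of Tef share 193 bases, 2.45% of its exon bases, with the antisense gene Gm17597. That row passed the filter on low counts in PolyA (log2 0.50, SE 0.269, edgeR adjusted p 0.353).

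**Figure D2:**
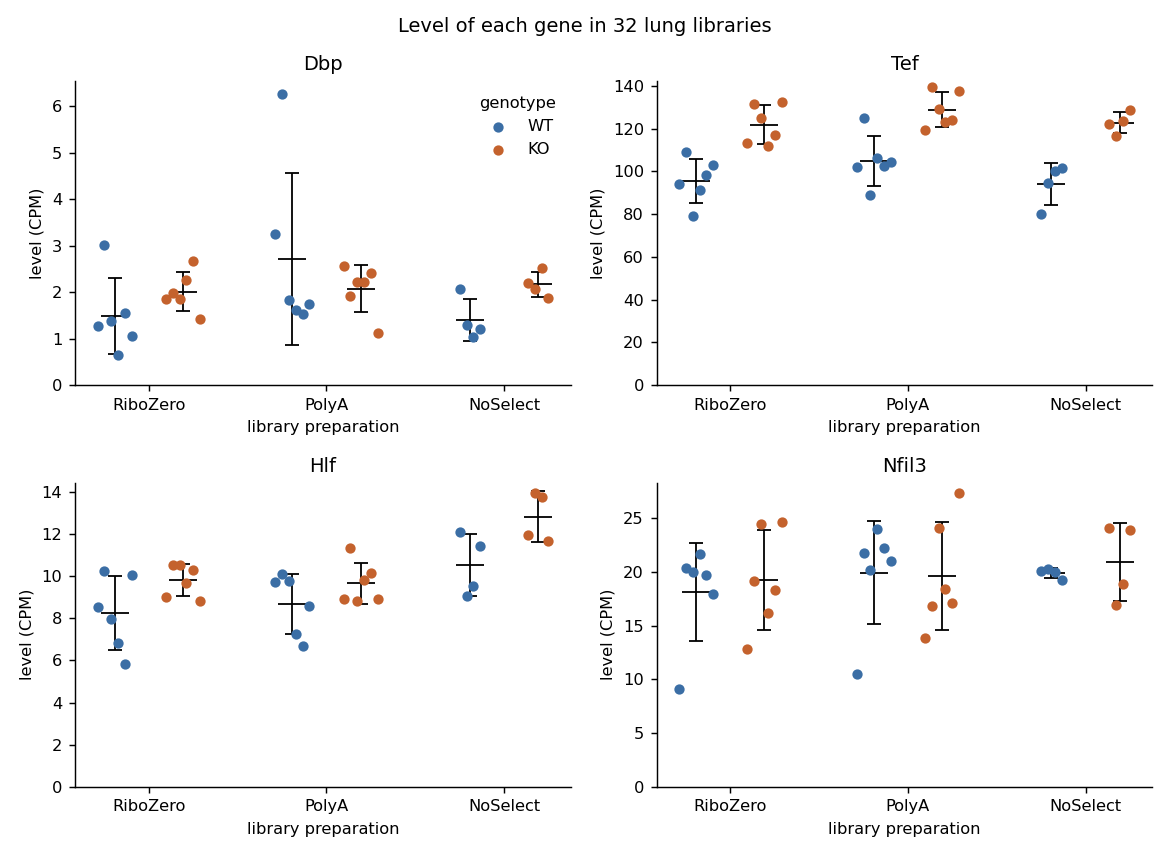
Level of Dbp, Tef, Hlf and Nfil3 in CPM (vertical axes start at 0) in each of 32 libraries, by preparation and genotype. Points are libraries, drawn left to right by mouse number, and black marks show the group mean with bars for the SD (n = 6 in RiboZero and PolyA, n = 4 in NoSelect). All KO libraries lie above all WT libraries for Tef in RiboZero and NoSelect, and the WT library of mouse 2 stands at 6.26 CPM for Dbp in PolyA.

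Dbp, the founding member of the family and a textbook target of BMAL1 and CLOCK, was not called in any preparation, by edgeR or by DESeq2. RiboZero WT libraries ran from 0.646 over a median of 1.33 to 3.01 CPM, and KO libraries from 1.42 over 1.92 to 2.66. PolyA libraries ran from 1.53 over 1.79 to 6.26 in WT and from 1.12 over 2.21 to 2.55 in KO. NoSelect values were 2.07, 1.30, 1.03 and 1.20 in WT mice 3 to 6 and 2.20, 2.06, 2.52 and 1.88 in KO mice 3 to 6. In RiboZero, 5 of the 6 WT libraries lay below the KO median and that of WT mouse 2 above all KO libraries. In PolyA, the libraries of WT mice 1 and 2 lay above all KO libraries, and WT and KO overlapped in every preparation.

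The fitted change of Dbp in KO was 0.43 on the log2 scale in RiboZero (95% interval -0.21 to 1.07, edgeR adjusted p 0.526), -0.41 in PolyA (-1.19 to 0.36, adjusted p 0.589) and 0.62 in NoSelect (0.10 to 1.14, unadjusted p 0.0246, adjusted p 0.236). These intervals reach from a fall to 0.438 of the WT level in PolyA to a rise to 2.20 times the WT level in NoSelect. The sign in PolyA rested on 1 mouse: without WT mouse 2 the log2 change was 0.03 in PolyA and 0.76 in RiboZero (edgeR adjusted p 0.973 and 0.1). With mice 3 to 6 alone, those that also have NoSelect libraries, it was 0.21 in PolyA and 0.83 in RiboZero (0.69 and 0.243). Counting error is widest where counts are fewest. The lowest library, WT mouse 4 in RiboZero, held 19 counts, or 0.646 CPM with an exact 95% Poisson interval of 0.389 to 1.01 that covers counting error only.

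Exons of Dbp share 539 bases, 18.0% of its exon bases, with Sphk2 on the opposite strand. The library kits mark strand, per the labels, but whether the counting used it is not given in the sources used here, so reads of the shared stretch may have been divided between both genes. Sphk2, a kinase that makes sphingosine 1-phosphate, lay at 18.9 to 33.5 CPM over all 32 libraries, well above Dbp. Its log2 change in KO was 0.02, 0.10 and 0.19 in RiboZero, PolyA and NoSelect (edgeR adjusted p 0.934, 0.439 and 0.0913). In NoSelect, where the fitted change of Dbp was also largest, Sphk2 did not overlap between genotypes, at 27.3 to 30.1 CPM in WT and 31.0 to 33.5 in KO (edgeR unadjusted p 0.00334). Of all rows tested there, 4.89% were higher in KO without overlap, and 15.7% had an unadjusted p under 0.05. Its part in the Dbp values was not tested.

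Hlf, a factor best known from liver, kidney and blood stem cells, had positive fitted changes in all 3 preparations, none of which passed. RiboZero libraries had a lowest, median and highest value of 5.84, 8.25 and 10.2 CPM in WT and 8.81, 9.99 and 10.5 in KO. PolyA libraries gave 6.66, 9.14 and 10.1 in WT and 8.82, 9.37 and 11.3 in KO. NoSelect values were 12.1, 9.07, 9.53 and 11.4 in WT mice 3 to 6 and 11.95, 13.96, 13.7 and 11.7 in KO mice 3 to 6. WT and KO overlapped in every preparation, and in RiboZero the WT libraries covered a wider range than the KO libraries. The log2 change was 0.25 in RiboZero (SE 0.126, interval -0.03 to 0.52, edgeR adjusted p 0.363), 0.12 in PolyA (SE 0.113, -0.13 to 0.36, adjusted p 0.629) and 0.28 in NoSelect (SE 0.111, 0.03 to 0.53, unadjusted p 0.0337, adjusted p 0.269).

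Nfil3, the D-box repressor, showed the smallest fitted changes of the set. In RiboZero the lowest, median and highest values were 9.10, 19.9 and 21.7 CPM in WT and 12.8, 18.7 and 24.7 in KO. In PolyA they were 10.5, 21.4 and 24.02 in WT and 13.9, 17.8 and 27.4 in KO. NoSelect values were 20.1, 20.3, 19.97 and 19.2 in WT mice 3 to 6 and 24.1, 16.9, 18.9 and 23.9 in KO mice 3 to 6. The KO libraries of NoSelect lay on both sides of the WT libraries, 2 above and 2 below. The log2 change was 0.07 in RiboZero (SE 0.202, interval -0.36 to 0.51, edgeR adjusted p 0.908), -0.06 in PolyA (SE 0.196, -0.48 to 0.37, adjusted p 0.916) and 0.07 in NoSelect (SE 0.109, -0.18 to 0.32, adjusted p 0.817). As folds, these intervals run from 0.778 to 1.42 in RiboZero, from 0.715 to 1.29 in PolyA and from 0.885 to 1.25 in NoSelect.

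**Figure D3:**
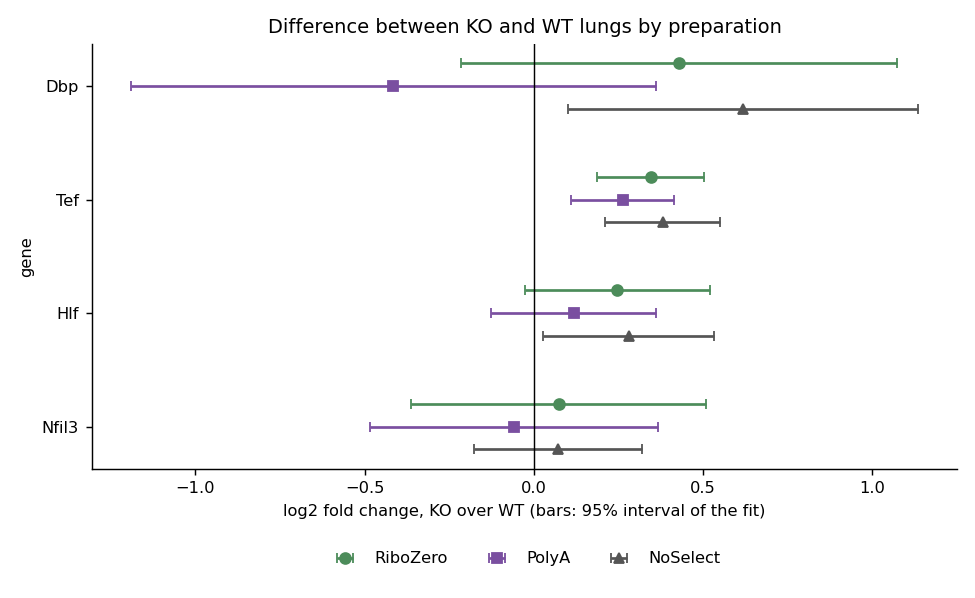
Fitted log2 fold change of each gene between KO and WT lungs, by preparation, with bars for the 95% interval of edgeR's fit (n = 6 per genotype in RiboZero and PolyA, n = 4 in NoSelect). All 3 Tef intervals lie above 0, whereas the Dbp interval of PolyA runs from -1.19 to 0.36.

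Whether the KO effect of a gene depended on the preparation was tested as an interaction. No member was called for any pair of preparations, and no row at all was (0.0% for each pair in edgeR). This fit took libraries of the same mouse as separate, although the mice recur across preparations. The missing calls therefore do not show that KO effects were equal between preparations. With the mouse as a block, no member was called either. An unadjusted p under 0.05 was reached by 1.82% of rows when PolyA was set against RiboZero, by 2.24% when it was set against NoSelect, and by 1.39% for RiboZero and NoSelect, with no member among them. The widest gap was that of Dbp, whose PolyA effect lay below its NoSelect effect by 1.04 on the log2 scale (95% interval of the difference -2.09 to 0.01, unadjusted p 0.0514, edgeR adjusted p 1.0), and DESeq2 called no member either. Without WT mouse 2 that difference was -0.62. With the mouse as a block, where only mice with libraries of both preparations count, it was -0.52. For Tef the difference between PolyA and RiboZero was -0.06 (-0.27 to 0.15), between PolyA and NoSelect -0.14 (-0.36 to 0.08), and between RiboZero and NoSelect -0.04 (-0.27 to 0.20).

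Preparations were also compared for the level itself, over both genotypes. No member reached an adjusted p under 0.05 together with a log2 difference of 1 or more in size. Of all rows, 23.6% did so between PolyA and RiboZero, 25.1% between PolyA and NoSelect, and 4.3% between RiboZero and NoSelect. By adjusted p alone, which 79.1% and 45.9% of rows passed, Hlf was lower in PolyA than in NoSelect (log2 -0.30, SE 0.0827, edgeR adjusted p 0.00239) and lower in RiboZero than in NoSelect (-0.37, SE 0.0889, adjusted p 0.00174). Tef was slightly higher in PolyA, by a log2 of 0.11 over RiboZero (adjusted p 0.047, against 81.1% of rows) and 0.15 over NoSelect (0.0135). The median signed log2 difference over all rows tested was 0.07, 0.10 and 0.03 for the 3 pairs. Rises and falls cancel in this median, so it does not say how far single rows moved. Since the same mice recur across preparations, each of the 12 mice was also fitted as a block of its own. Nfil3 then stood 0.13 above NoSelect in PolyA (adjusted p 0.0067), where the fit without the block gave -0.01. Only mice with libraries of both preparations bear on the block value. Mice without a NoSelect library, such as WT mouse 1, therefore count in the -0.01 and not in the 0.13. Leaving these mice out without a block also turned the sign, but that value did not pass. The part of the block itself in the shift was not tested. With the block, PolyA stood above RiboZero for Dbp by 0.41 (0.0163) and for Nfil3 by 0.09 (0.029).

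Ordered by group mean, Tef ran from 128.8 ± 8.13 CPM in PolyA KO over 122.8 ± 5.07 in NoSelect KO and 121.8 ± 9.10 in RiboZero KO to 104.9 ± 11.6 in PolyA WT, 95.7 ± 10.3 in RiboZero WT and 94.1 ± 9.91 in NoSelect WT. All 3 KO groups thus stood above all 3 WT groups for Tef, although neighbours in this order overlapped in their libraries. The 3 groups of a genotype share mice, so they are not 3 separate observations. Hlf was led by NoSelect KO at 12.8 ± 1.19 CPM and NoSelect WT at 10.5 ± 1.46, and ended with RiboZero WT at 8.24 ± 1.74. Dbp had its highest mean in PolyA WT at 2.71 ± 1.85 CPM, with RiboZero WT (1.49 ± 0.810) and NoSelect WT at the low end. The 6 group means of Nfil3 lay between 18.1 and 20.95 CPM. Neighbouring groups overlapped for each of the 4 genes (SD over n = 6 in RiboZero and PolyA and n = 4 in NoSelect).

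In RiboZero and PolyA, libraries from mice of 1 genotype differed from each other most in Dbp and Nfil3. Counting error is part of this spread, and is widest for Dbp, which had the fewest counts. The SD of log2 CPM between mice was 0.73 and 0.80 for Dbp in RiboZero and PolyA WT, and 0.31 and 0.43 in the KO groups of these preparations. For Nfil3 it was 0.47 and 0.44 in WT and 0.36 in both KO groups. In NoSelect WT, which holds mice 3 to 6 alone, Nfil3 had the smallest SD of the 4 genes, 0.034, against 0.43 for Dbp. WT mouse 1, at log2 deviations of -0.94 and -0.88 for Nfil3 in RiboZero and PolyA, has no NoSelect library. Nor does WT mouse 2, at 1.12 and 1.42 for Dbp, so these SDs are not of the same mice. Tef had the smallest spread in RiboZero and PolyA, at most 0.16, and its highest KO library exceeded its lowest by a factor of 1.18 in RiboZero and 1.17 in PolyA. Dbp in PolyA WT spanned a factor of 4.10 between its lowest and highest library.

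WT mouse 2 was the highest WT mouse for all 3 PAR bZIP genes in both preparations made from it. In RiboZero it stood at 3.01 CPM for Dbp where the other WT mice had at most 1.56, and in PolyA at 6.26 where they had at most 3.25. For Tef it had 109.0 and 125.0 CPM and for Hlf 10.2 and 10.1 CPM in these preparations. Nfil3 in the same mouse, at 20.4 and 21.8 CPM, lay within the range of the other WT mice. Nr1d1, which encodes the clock repressor REV-ERBα and is another BMAL1 target, was also highest in this mouse, at 23.6 CPM in RiboZero against 7.34 to 11.5 in the other WT mice, and at 40.9 in PolyA against 17.2 to 21.5.

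WT mouse 1 was lowest for Nfil3 in both preparations made from it. It had 9.10 CPM in RiboZero, where the other WT mice had 17.9 to 21.7, and 10.5 CPM in PolyA, where they had 20.2 to 24.02. Without this mouse the log2 change of Nfil3 in KO was -0.06 in RiboZero and -0.18 in PolyA (edgeR adjusted p 0.88 and 0.542). Among KO mice, mouse 1 was lowest for Nfil3 with 12.8 CPM in RiboZero and 13.9 in PolyA. KO mice 3 and 6 were the highest for Nfil3 in all 3 preparations, at 24.5 and 24.7 CPM in RiboZero, 24.1 and 27.4 in PolyA, and 24.1 and 23.9 in NoSelect. KO mouse 6 was at the same time lowest among KO mice for Dbp and for Hlf in RiboZero and NoSelect, and for Dbp in PolyA with 1.12 CPM.

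**Figure D4:**
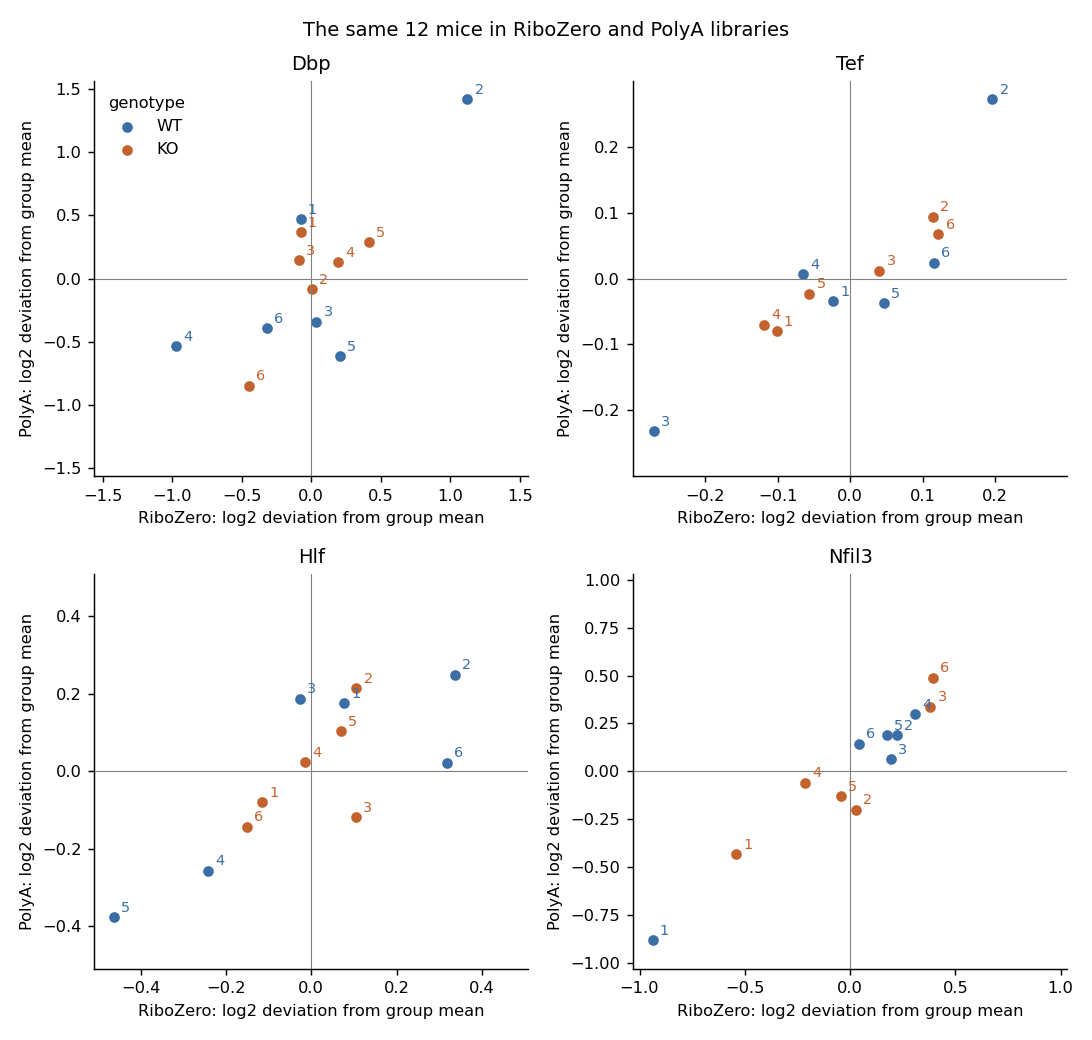
Log2 deviation of each of 12 mice from the mean of its genotype, in RiboZero (horizontal axis) and PolyA (vertical axis) libraries, for the 4 genes. Points are mice, labelled with their number and coloured by genotype, and each panel has its own scale. WT mouse 2 stands at 1.12 and 1.42 for Dbp, and WT mouse 1 at -0.94 and -0.88 for Nfil3.

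The partner genes of these factors were read from chosen lists, with Arntl left out. Of 11 clock genes known to be driven through E-boxes, 1 was called higher and 2 lower in RiboZero KO, 1 and 4 in PolyA, and 2 and 2 in NoSelect, with median log2 changes of -0.39, -0.53 and -0.27 against -1.23e-05, -0.00292 and 0.000533 over all rows tested. Over all rows, 1.84% were called higher and 1.63% lower in RiboZero, 1.62% and 2.41% in PolyA, and 1.19% and 0.981% in NoSelect. Nr1d1 was the gene with the largest fall on this list, at -4.86, -5.40 and -4.77 (edgeR adjusted p 3.33e-06, 7.93e-07 and 1.5e-05). Dbp, at 0.43, -0.41 and 0.62 and not called, differed from Nr1d1 in sign in RiboZero and NoSelect, although both are textbook E-box targets. A positive sign was not particular to Dbp, since Per2 on the same list was called higher in each preparation, at 1.28, 1.19 and 1.43. Of the 4 genes driven through ROR and REV-ERB elements, 3 were called higher in each preparation, Cry1 and Npas2 among them, with list medians of 1.62, 1.66 and 1.50. Nfil3, known to be driven through the same kind of element, stood at 0.07, -0.06 and 0.07.

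Among 13 genes known to be controlled through D-boxes, 12 were tested in each preparation. Those called higher and lower numbered 1 and 4 in RiboZero, 1 and 3 in PolyA, and 1 and 3 in NoSelect. The shares of all rows called higher and lower were 1.84% and 1.63% in RiboZero, 1.62% and 2.41% in PolyA, and 1.19% and 0.981% in NoSelect. The list medians were -0.18, -0.28 and -0.17. Of the 13, 5 are also on the E-box list, among them Per2, the gene called higher, and Nr1d1 and Nr1d2, called lower. Cyp2a5, a cytochrome P450 that DBP, TEF and HLF are known to control in liver, was the gene called lower outside that list in all 3 preparations, at -2.24, -2.11 and -2.35 on the log2 scale (SE 0.378, 0.368 and 0.402, edgeR adjusted p 0.00602, 0.00693 and 0.0251). Por, the reductase that supplies electrons to these enzymes, fell by 0.40 on the log2 scale in RiboZero (SE 0.0703, edgeR adjusted p 0.00694), and its values of -0.44 in PolyA and -0.31 in NoSelect did not pass (0.0821 and 0.0914). The lists do not say which factor acted on a gene.

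Of the C/EBP family, bZIP factors related to the PAR group, 5 of 6 genes were tested, and Cebpa was called lower in PolyA (log2 -0.22, SE 0.0551, edgeR adjusted p 0.0454). Of all rows, 2.41% were called lower there. Medians over the 5 were -0.15, -0.11 and -0.12. No C/EBP gene was called by edgeR in RiboZero or NoSelect, where 2 and 0 of the 5 had an unadjusted p under 0.05, against 16.4% and 15.7% of all rows, and DESeq2 called 0 and 0.

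The genes most like each member were sought among 13122 rows by the lower of 2 Pearson correlations of log2 CPM, over 12 RiboZero and 12 PolyA libraries. The libraries share mice, genotype and depth, so the values are descriptions. Nfil3 had the highest r with its partners, Sec14l1 (lower r 0.938), Ifrd1 (0.906) and the cell cycle inhibitor Cdkn1a (0.884). WT mouse 1 stood far below the other WT mice for Nfil3 in both preparations. Its part in these r, and in those on deviations below, was not tested. For Tef they included the mitochondrial carrier gene Slc25a34 (0.87) and the translation factor gene Eif4g3 (0.87). For Dbp they were the amine oxidase gene Aoc3 (0.835), Wdr73 (0.79) and the muscle kinase gene Speg (0.765), and for Hlf they were Dcaf5 (0.753), Fbxw9 (0.733) and Tulp3 (0.73).

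The 4 genes were not close partners of each other by this measure. For Dbp, Hlf took place 248 with a lower r of 0.498, Tef place 2945 with 0.12, and Nfil3 place 9577 with -0.39. Tef and Hlf had a lower r of 0.349. On deviations from genotype means, which take out the KO effect, the first partner was Aoc3 for Dbp (0.86), BX649560.1 for Tef (0.678), Dcaf5 for Hlf (0.773) and Abra for Nfil3 (0.949). Speg (0.854) and Map1a (0.815) followed for Dbp, Adam23 (0.666) and Gpld1 (0.663) for Tef, Igkv5-39 (0.767) and Gemin8 (0.753) for Hlf, and Sec14l1 (0.945) and Prkab1 (0.942) for Nfil3. Nr1d1 took place 562 for Dbp by deviations, with a lower r of 0.479, and place 9276 by levels, with -0.365.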

How the data were processed

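RNA of whole lungs was sequenced from 12 mice in 32 libraries. The deposited table holds estimated counts per gene, made by the authors with Salmon 1.4.0 and UMI-tools 1.1.1 on GRCm38, per the submitters' processing notes; the strand setting is not given in the sources used here. Of the values, 12.81% were not whole, and counts were rounded. The members and gene lists were chosen with earlier results of these data known. Named were the 4 members, Arntl, list genes on which a result turns, and for each member the 3 rows most like it. Some results under this rule are not reported here.

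KO and WT were compared within each preparation with edgeR 4.0.16 (TMM, filterByExpr, quasi-likelihood test, Benjamini-Hochberg adjustment over all rows tested, threshold 0.05) in R 4.3.3. Interactions and preparations were fitted over both preparations of a pair. Alternatives were DESeq2 1.42.0, median-of-ratios factors, no filter or at least 10 counts in every library, thinning to the smallest total, removal of abundant rows, a replicate block (the mouse number between genotypes, and the single mouse in fits across preparations), mice 3 to 6 only, and leaving out each mouse. Scripts were tested on simulated data. Depth ran from 11638594 to 115059756 counts per library. Nothing in the labels says how mice were paired between genotypes, and replicates are separate mice.

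Preparations share mice: deviations of the same mouse in a pair of preparations correlated at r 0.390 to 0.752 over 10902 rows, above 0.1 in 28 of 28 pairs, so the numbers pair libraries across preparations. Gene positions and exon lengths came from GENCODE M21, and promoters from RefSeq (GRCm38.p6). No protein sequences were used here.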

Additional observations from a re-analysis of the deposited data

Results flagged for a closer look

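Of 24 groups of 4 or 6 libraries tested for a library far from the others, 3 were flagged, where chance flags about 1 in 20. Dbp in the PolyA library of WT mouse 2 stood at 6.26 CPM, with a gap to the next library of 0.635 of the group's range. Nfil3 in WT mouse 1 stood at 9.10 CPM in RiboZero and at 10.5 CPM in PolyA, the lowest of 6 in both, with gaps of 0.700 and 0.718 of the range. The critical value for 6 libraries is 0.625.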

How the results depend on the processing

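Rows called between KO and WT numbered 985, 1355 and 874 with DESeq2 in RiboZero, PolyA and NoSelect, against 579, 694 and 372 with edgeR. With mice 3 to 6 only, 255 were called in RiboZero, and after thinning 142 in NoSelect. Leaving out 1 mouse gave 380 to 644, 442 to 1066 and 148 to 472. WT and KO mice of 1 number are different animals, and their deviations correlated at -0.0994 to 0.303, above 0.1 in 6 of 16 pairs. The replicate block gave 372 calls in RiboZero and 103 in NoSelect.

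For Tef the log2 change with mice 3 to 6 only was 0.39 in RiboZero (adjusted p 0.067) and 0.32 in PolyA (0.0416). In PolyA it was 0.26 with DESeq2 (0.00612), 0.28 after thinning (0.03), 0.27 without abundant rows (0.0492) and 0.27 with the replicate block (0.0496). In NoSelect it was 0.45 after thinning (0.0549) and 0.39 with the replicate block (0.0833). Leaving out 1 mouse gave 0.29 to 0.38 in RiboZero (edgeR adjusted p 0.0136 to 0.053), 0.23 to 0.32 in PolyA (0.00544 to 0.106) and 0.31 to 0.42 in NoSelect (0.0257 to 0.116). The cause was not tested.

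Signs that turned belonged to values that did not pass, except Nfil3 in PolyA against NoSelect with each mouse as a block (0.13). With mice 3 to 6 only, Dbp in PolyA KO was 0.21, and after thinning Nfil3 there was 0.022. Leaving out 1 mouse gave -0.53 to 0.028 for Dbp in PolyA, and -0.064 to 0.17 and -0.18 to 0.027 for Nfil3 in RiboZero and PolyA. Hlf in PolyA against RiboZero was -0.015 with DESeq2, -0.015 with median-of-ratios factors and -0.014 with at least 10 counts. Nfil3 in PolyA against NoSelect was 0.055 with no filter, 0.11 with mice 3 to 6 only, and -0.079 to 0.035 leaving out 1 mouse. In RiboZero against NoSelect, Dbp was 0.15 after thinning and -0.18 to 0.085 leaving out 1 mouse. Tef was -0.0046 with DESeq2, -0.0044 with median-of-ratios factors, -0.0015 with at least 10 counts, -0.026 after thinning, -0.0040 without abundant rows, -0.021 with each mouse as a block, -0.018 with mice 3 to 6 only, and -0.017 to 0.014 leaving out 1 mouse.

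The KO effect in RiboZero minus NoSelect was 0.19 for Dbp, 0.0025 for Tef and 0.078 for Hlf with each mouse as a block, and 0.21, 0.0049 and 0.073 with mice 3 to 6 only. It was 0.022 for Hlf after thinning, and for Nfil3 0.0085 with DESeq2 and 0.0010 with median-of-ratios factors. Leaving out 1 mouse gave -0.47 to 0.14 for Dbp, -0.062 to 0.0036 for Tef, -0.12 to 0.037 for Hlf and -0.14 to 0.095 for Nfil3. Rows called for interactions numbered 11, 13 and 9 with DESeq2 for PolyA minus RiboZero, PolyA minus NoSelect and RiboZero minus NoSelect. The block on each mouse called 1 for the first and 1 for the last, mice 3 to 6 only called 1 for the last, and leaving out 1 mouse 0 to 2 for PolyA minus NoSelect. Rows called between preparations numbered 6552 with no filter and 2560 with at least 10 counts for PolyA against RiboZero, 7039 and 2902 for PolyA against NoSelect, and 301 with at least 10 counts for RiboZero against NoSelect.

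Dbp had no value in NoSelect after thinning, because it did not pass the filter. Its counts, 19 to 299 per library, limit what can be seen of it.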
